A study of Mus musculus with 8 samples.

Results

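The genes described here encode 9 peptide hormones of the gut's enteroendocrine cells: Gcg, Gip, Cck, Sst, Nts, Sct, Pyy, Ghrl and Tac1. They were chosen by name, as non-control probes whose annotated gene name is one of the 9, and 14 probes on the array carry those names. The names were picked with earlier results of these data known, so counts of these genes beside all genes or other lists only describe the set. The 9 are part of 28505 distinct gene names on the array and of 19324 genes that passed a filter on dim probes: on 2 or more of the 8 arrays, a channel had to be well above background. All 9 passed it. One probe, the brightest, stands for each gene unless another is named.

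Enteroendocrine cells are scattered, hormone-secreting cells of the intestinal epithelium. They arise in the crypts from progenitors that briefly express the basic helix-loop-helix (bHLH) factor Neurog3, and they store peptides, cut from longer prohormones, in dense-core granules that empty when nutrients or other stimuli reach the cell. Different enteroendocrine cells make different sets of peptides, and a cell can change its set as it moves from crypt to villus.

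Expression was measured in cultured mouse small-intestinal organoids, which are epithelial structures grown from crypts, on 8 two-colour Agilent arrays. Each array carried the RNA of a tested culture (its own RNA) and of a control culture, in Cy5 and Cy3. The study asked how Ascl2, a bHLH factor active in the stem cells of the crypt, and Tcf7l2, through which beta-catenin reaches Wnt target genes, govern the crypt programme. Arrays are called here by their labels, whether or not the targeted gene bears these out. Exp1 Ascl2 OE rep1 and rep2 compared organoids transduced with Ascl2 under a CMV promoter, with RNA extracted after 24 h, with VillinCreERT2 organoids, and the dyes were swapped on rep2. Exp2 TCF7L2null/Ascl2 OE, Exp2 Ascl2 OE and Exp2 TCF7L2null each set 1 culture (Tcf7l2 deleted and Ascl2 induced, Ascl2 induced alone, Tcf7l2 deleted alone) against organoids transduced with dsGFP. Exp3 Ascl2null set organoids with Ascl2 deleted against VillinCreERT2 organoids. All cultures, controls included, were exposed for 16 h to 4OH-tamoxifen, which activates CreERT2, and in the dsGFP control this exposure induced GFP. VillinCreERT2 places that recombinase under the promoter of an epithelial gene. A self-self array, with the same control RNA in both colours, accompanied Exp2 (dsGFP) and Exp3. The Exp3 self-self array has VillinCreERT2 as its genotype and Ascl2loxp/loxp in its description, so which of these the Exp3 control was is not settled. Each experiment was a slide of its own, so slide and experiment cannot be told apart. The labels do not say whether rep1 and rep2 were grown separately, so the p-values reflect how far the arrays differ, and that spread may be technical. Every other condition is 1 array, so it has no replicate check and gets no p-value of its own. In RNA from whole organoids, fewer cells of a type and less RNA per cell cannot be told apart.

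All ratios below are log2, own RNA over control RNA, after background correction and loess normalisation. Loess sets the middle of each array at 0, so ratios are relative to most genes. Background correction added an offset of 50 intensity units to both channels, which draws a ratio toward 0 where a channel is dim. Folds are those of the ratios so computed. The Ascl2 probe had ratios of -0.31 and 0.12 on the Exp1 Ascl2 OE arrays, -0.93 on Exp2 TCF7L2null/Ascl2 OE, -0.72 on Exp2 Ascl2 OE, -0.57 on Exp2 TCF7L2null and -1.07 on Exp3 Ascl2null, beside 0.01 and -0.26 on the Exp2 and Exp3 self-self arrays. It was thus not higher where Ascl2 was labelled as overexpressed, and the sources used here do not say whether the construct holds the probe's sequence. The Tcf7l2 probe had ratios of 0.18 on Exp2 TCF7L2null/Ascl2 OE and -0.34 on Exp2 TCF7L2null, beside 0.37 on the Exp2 self-self array; nor do they say whether it lies in the deleted part. The directions below are therefore those of the labels. Between 50.1% and 61.1% of probe spots were well above background in Cy3 and between 53.8% and 67.4% in Cy5, and no spot was saturated. The number of arrays limits the precision.

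Upstream sequence is shown for 5 of the genes: Gcg, Gip, Cck and Sst, whose ratios ran together across the arrays, and Sct, whose ratios did not. Each window is the 250 bases before the gene's start in RefSeq (GRCm38.p6), 5′ to 3′ on the gene's strand: chr2:62483654-62483903 (minus) for Gcg, chr11:96024295-96024544 (plus) for Gip, chr9:121495695-121495944 (minus) for Cck, chr16:23890845-23891094 (minus) for Sst and chr7:141279134-141279383 (minus) for Sct. Capitals mark E-boxes, the letters CANNTG that bHLH dimers such as those of Ascl2 can bind, and in Sst also the palindrome TGACGTCA, the cyclic AMP response element for which this promoter is known.
Gcg: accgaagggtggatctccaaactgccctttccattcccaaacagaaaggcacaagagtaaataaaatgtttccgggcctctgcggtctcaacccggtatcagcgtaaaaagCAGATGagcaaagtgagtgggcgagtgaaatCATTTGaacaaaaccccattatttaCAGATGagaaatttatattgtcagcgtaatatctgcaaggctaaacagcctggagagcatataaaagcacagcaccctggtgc
Gip: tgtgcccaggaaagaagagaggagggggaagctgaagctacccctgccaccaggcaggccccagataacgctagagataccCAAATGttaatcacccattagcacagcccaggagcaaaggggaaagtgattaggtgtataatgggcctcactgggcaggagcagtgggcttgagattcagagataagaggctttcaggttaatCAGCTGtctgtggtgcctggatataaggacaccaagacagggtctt
Cck: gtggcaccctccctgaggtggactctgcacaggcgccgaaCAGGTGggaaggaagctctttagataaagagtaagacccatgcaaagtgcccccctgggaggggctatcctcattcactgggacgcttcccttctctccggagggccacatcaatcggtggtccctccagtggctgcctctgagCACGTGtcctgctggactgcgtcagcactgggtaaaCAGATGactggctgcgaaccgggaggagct
Sst: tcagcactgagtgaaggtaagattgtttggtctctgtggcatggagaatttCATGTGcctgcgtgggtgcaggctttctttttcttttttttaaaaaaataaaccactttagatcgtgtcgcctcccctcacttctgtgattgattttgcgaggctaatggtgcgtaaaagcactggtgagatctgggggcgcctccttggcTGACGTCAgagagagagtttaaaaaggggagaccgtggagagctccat
Sct: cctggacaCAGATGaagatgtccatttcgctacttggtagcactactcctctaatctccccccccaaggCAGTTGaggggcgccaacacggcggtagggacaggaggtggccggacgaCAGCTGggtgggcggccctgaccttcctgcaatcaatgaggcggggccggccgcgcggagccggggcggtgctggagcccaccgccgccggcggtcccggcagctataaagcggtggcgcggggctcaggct
The Gcg, Cck and Sct windows hold 3 E-boxes each, the Gip window 2 and the Sst window 1. CANNTG is its own reverse complement and occurs in 66.2% of all 32851 promoter windows of the same length. The narrower form CAGCTG stands in the Gip and Sct windows and in 13% of all windows. CAGGTG, searched on both strands, stands in the Cck window and in 17.2% of all. TGACGTCA is in the Sst window and in 1.55% of all windows. The Tcf/Lef-type letters CTTTGAT and CTTTGAA, on both strands, are in none of the 5 and in 3.21% and 4.46% of all windows. Each match to a narrower form is also a CANNTG match.

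In the Exp1 Ascl2 OE organoids, 5 of the 9 hormone genes fell: Nts, Sst, Gcg, Cck and Gip, with Nts at a log2 change of -2.29 ± 0.13 (SE, n = 2 arrays). All 9 were below 0 on both arrays. Over all genes, 0.569% fell and 0.352% rose by the same rule (limma, Benjamini-Hochberg adjusted p under 0.05), and 28.2% were below 0 on both arrays. At an unadjusted p under 0.05, 7 hormone genes were lower and 0 higher (limma), where 8.61% and 6.75% of all genes were.

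Gcg encodes proglucagon, the source of the incretin GLP-1 and of GLP-2 in intestinal L cells. Its probe (mm9 chr2:62312685-62312744) gave ratios of -1.30 on rep1 and -1.91 on rep2, a log2 change of -1.61 ± 0.14 (SE, n = 2 arrays; limma adjusted p = 0.0237). Gip encodes the incretin of K cells and gave -1.06 and -1.04 (adjusted p = 0.0313, limma). Both incretin genes were lower on each array, and the arrays differed more for Gcg than for Gip. Cck, whose peptide contracts the gallbladder and restrains feeding, gave -1.12 on rep1 and -1.61 on rep2 (adjusted p = 0.0297, limma). Sct, for secretin, which draws bicarbonate from the pancreas, gave -1.0 and -0.89, and its change of -0.95 ± 0.16 (SE, n = 2 arrays) missed the threshold (adjusted p = 0.0619, limma). Sst encodes somatostatin, the peptide that restrains release of the other hormones. Sst gave -1.69 and -1.82 (adjusted p = 0.0134, limma). Nts encodes neurotensin, a peptide of the distal small intestine that slows gut transit, and gave -2.43 and -2.16 (adjusted p = 0.0117, limma). Nts was the lowest of the 9 on both arrays, followed by Sst on rep1 and by Gcg on rep2. Nts ranked 4 from the lowest of all 19324 genes, with Sst at 6 and Gcg at 9. The remaining 3 genes had smaller ratios. Pyy, for the L-cell peptide that slows emptying, gave -0.23 and -0.24. Ghrl, for the hunger peptide ghrelin, gave -0.43 and -0.23, and Tac1, for the tachykinins substance P and neurokinin A, gave -0.05 and -0.17. Their adjusted p-values were 0.401, 0.322 and 0.754 (limma). The calls need both arrays: without rep1 or without rep2, no hormone gene passed the adjusted threshold, while 6 were lower at an unadjusted p under 0.05 (limma) in either case, where 7.5% of all genes were without rep1 and 3.97% without rep2. With 1 array left, the spread there comes from the self-self arrays alone. No hormone gene passed it with the scanner's own log ratio, with median centring or with outlying local backgrounds kept, and of the 5, Nts and Sst stayed past the threshold with the authors' deposited values.

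**Figure D1:**
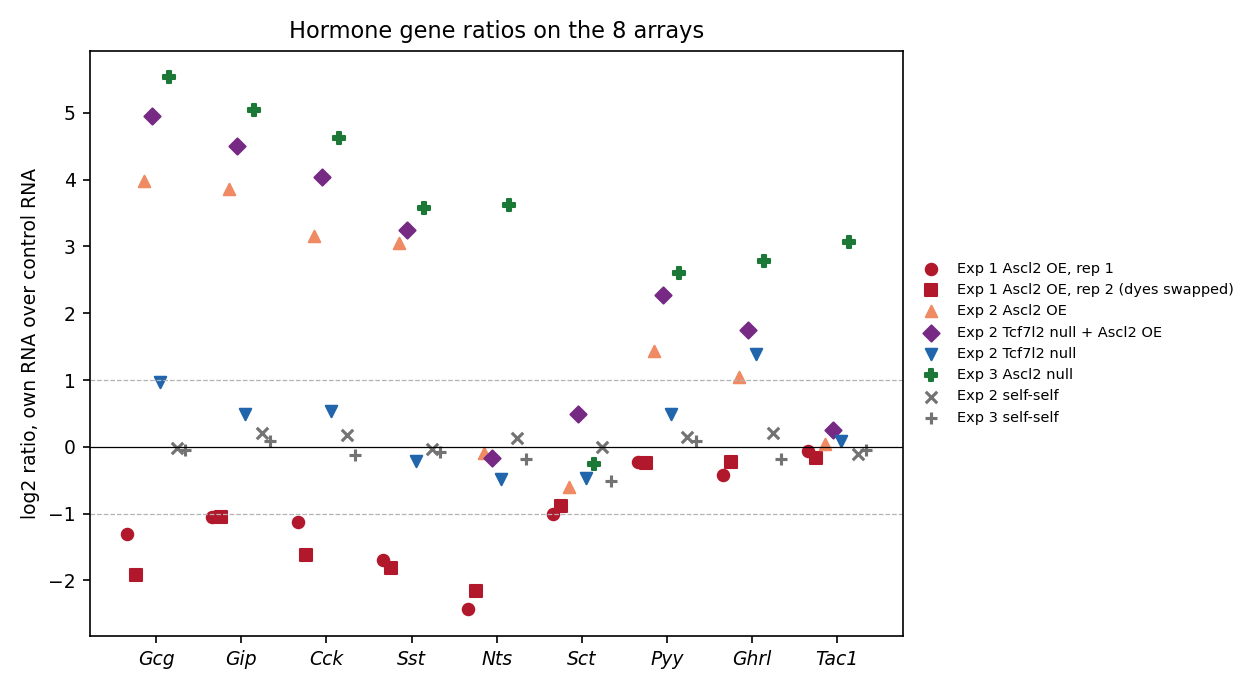
Log2 ratio of own RNA over control RNA (y axis) for the 9 hormone genes (x axis), 1 point per array, with the self-self arrays in grey and dashed lines at 2-fold. The Exp1 Ascl2 OE points of Gcg, Gip, Cck, Sst and Nts lie at or below -1.04, while Gcg, Gip, Cck and Sst lie at or above 3.05 on Exp2 TCF7L2null/Ascl2 OE, Exp2 Ascl2 OE and Exp3 Ascl2null.

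In the Exp2 Ascl2 OE organoids, by contrast, 6 of the 9 genes were at least 2-fold higher than in the dsGFP control and none was 2-fold lower, where 1.14% of all genes were 2-fold higher and 0.98% lower. Counts of this kind use ratios with the model's dye term removed; values per array are the ratios as measured. Gcg had a ratio of 3.98, which is 15.8-fold, and Gip one of 3.87, or 14.6-fold. Both incretins were among the 6 highest of 19289 genes on this array. Cck had a ratio of 3.16 and Sst one of 3.05. Pyy at 1.43 and Ghrl at 1.05 were the other two past 2-fold. Tac1 at 0.04, Nts at -0.09 and Sct at -0.60 were not, and Sct was the lowest of the 9. On the Exp2 self-self array the 9 genes lay between -0.11 and 0.21, and 0.0208% of all genes differed 2-fold either way.

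The difference between the 2 experiments with the same label was tested in the same limma fit, Exp2 minus Exp1. It was above 0 for all 9 genes, and 6 passed the adjusted threshold, where 0.498% of all genes did so in that direction. The difference was 5.45 ± 0.27 for Gcg, 4.85 ± 0.22 for Gip, 4.80 ± 0.21 for Sst and 4.39 ± 0.25 for Cck (SE on the log2 scale; limma adjusted p of 0.0019, 0.00156, 0.00156 and 0.003). Gcg, Gip, Sst and Cck thus ran in opposite directions under 1 label, and the differences exceeded the spread between arrays. Nts differed by 2.28 (adjusted p = 0.0172, limma) being lower in Exp1 and close to its control in Exp2. Pyy differed by 1.61 (adjusted p = 0.0321, limma), while Ghrl at 1.42 (adjusted p = 0.0943), Sct at 0.50 and Tac1 at 0.16 missed the threshold (limma). Exp2 enters this test with 1 array, so the spread between cultures of Exp2 is not measured. Gcg, Gip, Cck and Sst also passed without rep1 and without rep2 (limma), but each arm is then 1 array and the spread comes from the self-self arrays alone, so it is technical. Nts did not pass without rep1 (adjusted p = 0.253, limma), nor Pyy without rep1 (0.456) or rep2 (0.0548). Both missed the threshold with the scanner's own log ratio (0.101 for Nts, 0.117 for Pyy) and with outlying local backgrounds kept (0.514 and 0.0715), and Pyy with the authors' deposited values (0.0578; adjusted p, limma). With median centring none of the 6 passed, although 6 hormone genes were higher at an unadjusted p under 0.05 (limma), where 1.03% of all genes were. Without that centring, 7 hormone genes and 4.73% of all genes were.

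Exp2 TCF7L2null/Ascl2 OE, where Tcf7l2 was deleted as Ascl2 was induced, also had 6 of 9 genes at least 2-fold higher than in the dsGFP control, where 1.19% of all genes were, and none 2-fold lower, where 2.14% were. The genes were the same as on Exp2 Ascl2 OE: Gcg, Gip, Cck, Sst, Pyy and Ghrl. Gcg had a ratio of 4.95 (30.9-fold), Gip 4.51 (22.8-fold), Cck 4.04 (16.5-fold) and Sst 3.25 (9.49-fold). Pyy had 2.27 and Ghrl 1.76, while Sct had 0.49, Tac1 0.25 and Nts -0.17. The Exp2 arrays share the dsGFP control, so their ratios are not independent of each other. In the difference of array ratios, TCF7L2null/Ascl2 OE was higher than Ascl2 OE by 0.97 for Gcg, 0.88 for Cck, 0.84 for Pyy, 0.70 for Ghrl, 0.64 for Gip and 0.20 for Sst. Sct was the 1 hormone gene past 2-fold in that difference, at 1.09, where 0.535% of all genes were. Against TCF7L2null, TCF7L2null/Ascl2 OE was higher by 4.02 for Gip, 3.99 for Gcg, 3.5 for Cck and 1.77 for Pyy. Sst, not well above background in TCF7L2null RNA, was past 2-fold as well, which makes 5 genes where 2.9% of all genes were.

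On Exp2 TCF7L2null, 1 hormone gene was at least 2-fold higher, where 0.414% of all genes were, and none 2-fold lower, where 0.497% were. It was Ghrl, with a ratio of 1.38 (2.61-fold). Its other probe gave 1.38 as well, and Ghrl ranked 17 from the highest of 19308 genes. Gcg had a ratio of 0.97, Cck 0.54, Pyy 0.50, Gip 0.49 and Tac1 0.09, against -0.47 for Sct and -0.48 for Nts. For Sst, RNA of the Tcf7l2 null culture gave no signal well above background, and the control was at least 1.16-fold brighter. Gcg passed 2-fold as well, giving 2 hormone genes, with the scanner's own log ratio (1.79), the authors' deposited values (1.82) or the outlying local backgrounds kept (1.17).

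Exp3 Ascl2null had the highest ratios for 8 of the 9 genes, all at least 2-fold higher than in the control, where 2.33% of all genes were; none was 2-fold lower. Gcg had a ratio of 5.53, which is 46.3-fold, Gip 5.04 or 32.9-fold, and Cck 4.62 or 24.7-fold. These were the genes at 3, 8 and 11 from the highest of 19298. Sst had 3.57, or 11.9-fold, and Nts 3.62, or 12.3-fold. Tac1 had 3.07, Ghrl 2.78 and Pyy 2.61. Nts and Tac1 stood near 0 on the Exp2 arrays, at -0.48 to 0.25, and past 3 here. Sct, at -0.26, was the exception, and on the Exp3 self-self array it had -0.51, the lowest of the hormone genes there. The other 8 lay between -0.18 and 0.09 on that array, where Gcg was not well above background in either channel. Of all genes, 0.15% differed 2-fold either way on it.

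**Figure D2:**
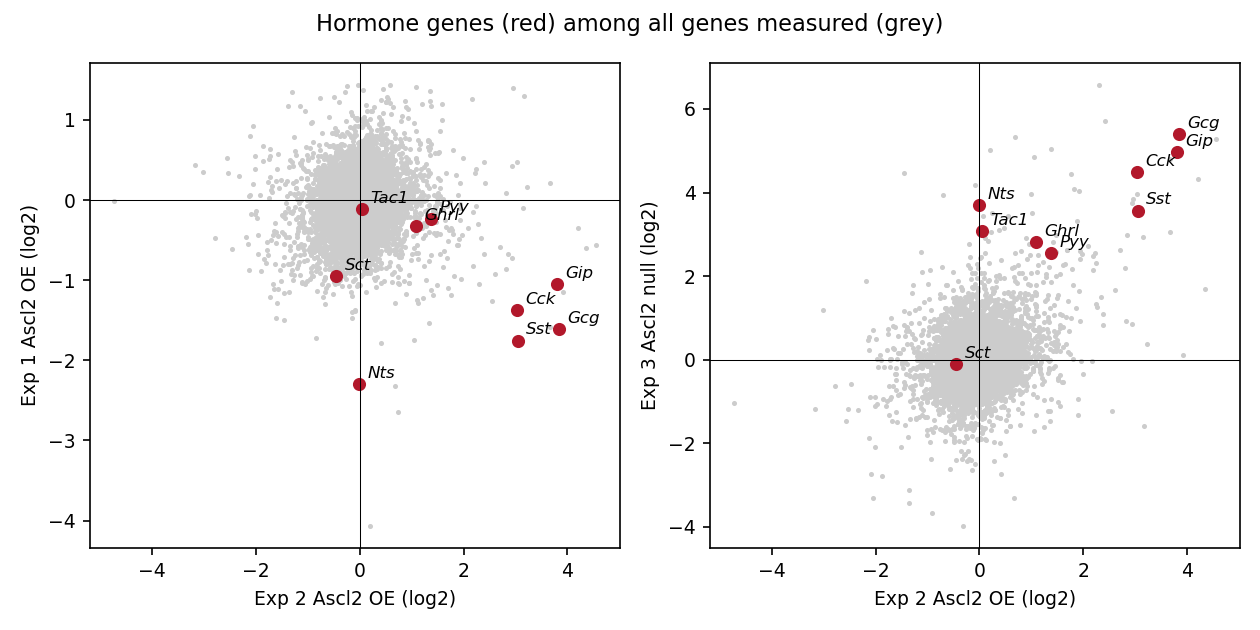
Each point is a gene, with Exp2 Ascl2 OE on the x axis of both panels and Exp1 Ascl2 OE (left) or Exp3 Ascl2null (right) on the y axis, as log2 changes with the dye term removed; hormone genes are red. Gcg, Gip, Cck and Sst lie at the lower right on the left panel and at the upper right on the right panel, while Nts and Tac1 are near 0 on the x axis.

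The array repeats the Gcg probe and the Sst probe (mm9 chr16:23889776-23889835) in 10 spots each, which shows the measurement error within an array. For Gcg the spots left after outliers had SDs of 0.18 on Exp3 Ascl2null, 0.20 on Exp2 TCF7L2null/Ascl2 OE, 0.14 on Exp2 Ascl2 OE and 0.13 on Exp2 TCF7L2null. On Exp1 Ascl2 OE rep1 and rep2 their SDs were 0.07 and 0.09, so the gap between -1.30 and -1.91 was larger than the spread of spots. The Gcg spots of Exp2 TCF7L2null ranged from 0.72 to 1.12 and did not overlap those of the Exp2 self-self array, which ranged from -0.21 to 0.14. The Sst spots had SDs of 0.07 to 0.15 over all 8 arrays. Repeated spots share 1 hybridisation and are not replicates of a condition.

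**Figure D3:**
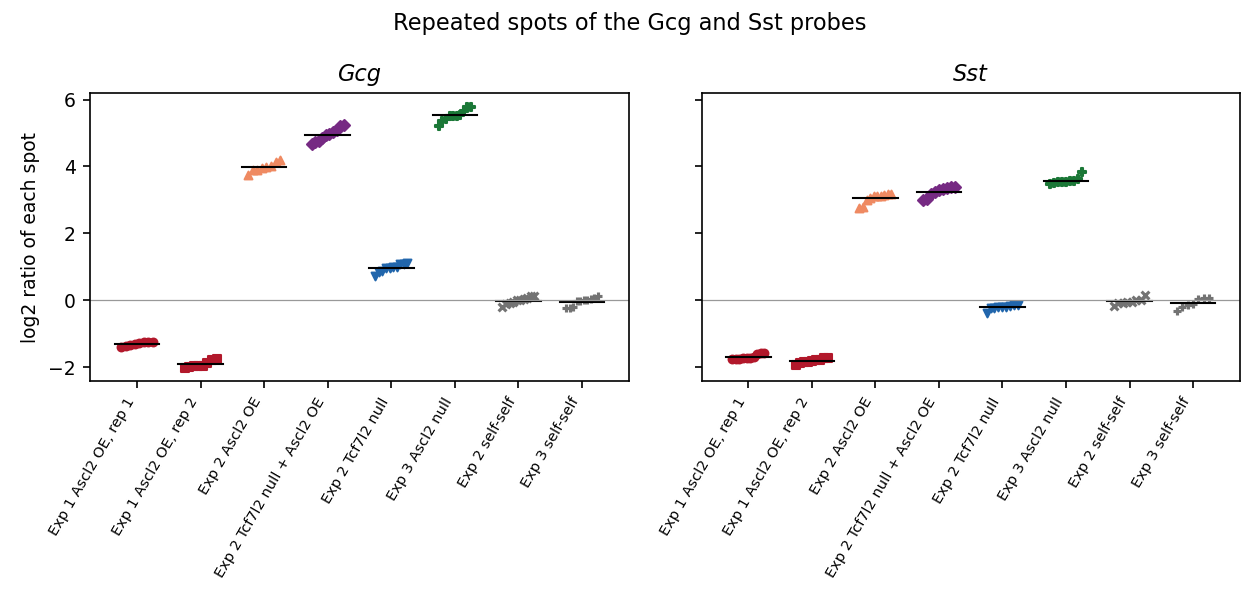
Log2 ratio of each spot of the Gcg probe (left) and the Sst probe (right) on the 8 arrays, sorted by value within an array, with the mean as a black line; outlier spots are left out. The Gcg spots of Exp2 TCF7L2null/Ascl2 OE, the widest set for Gcg, run between 4.67 and 5.24.

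Other probes of the genes were compared with the ones above. A second Ghrl probe gave -0.33 and -0.40 on the Exp1 Ascl2 OE arrays, 1.81 on Exp2 TCF7L2null/Ascl2 OE, 1.1 on Exp2 Ascl2 OE and 2.37 on Exp3 Ascl2null, beside 2.78 for the first. On the Exp3 self-self array it gave 0.46, where the first gave -0.18. A second, dimmer Pyy probe gave 0.01 and 0.03 on the Exp1 Ascl2 OE arrays, 0.73 on Exp2 TCF7L2null/Ascl2 OE, 0.24 on Exp2 Ascl2 OE and 1.64 on Exp3 Ascl2null, smaller than the first throughout, so the size of the Pyy ratio depends on the probe. With both probes averaged, the Exp2 minus Exp1 difference of Pyy was 0.94 and missed the threshold (limma adjusted p = 0.134). The other Gcg probe and 2 other Tac1 probes were not well above background on any array; the array names them through cDNA accessions, and they lie elsewhere at the same loci.

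Channel intensities give the level in each culture. They are log2 intensities after normalisation between arrays, compared for 1 probe at a time, and their scale across slides rests on that normalisation. In the Exp1 Ascl2 OE organoids Gcg stood at 9.95 and 9.60, and in their VillinCreERT2 control at 11.25 and 11.52. In Exp2, Gcg stood at 12.36 in TCF7L2null/Ascl2 OE, 11.04 in Ascl2 OE and 7.84 in TCF7L2null, against a mean of 7.03 ± 0.23 over 5 channels of dsGFP RNA (SD). In Exp3 it stood at 12.60 in Ascl2null RNA, against 7.07 in the control RNA of the same array, and the 2 self-self channels, at 6.33 and 6.38, were not well above background. The Exp1 control was thus the one control with high Gcg, and the Exp1 Ascl2 OE organoids, though lower than their control, were above the dsGFP control. The Exp1 control exceeded the Exp2 control by 4.36 for Gcg, 3.89 for Gip, 2.96 for Cck, 2.93 for Sst, 2.54 for Nts and 1.21 for Pyy, 6 of the 9 genes past 2-fold where 1.62% of all genes were. It exceeded the Exp3 control by at least 2-fold for 8 of 9 genes, from 1.36 for Sct to 5.68 for Gip, where 5.34% of all genes were. Pyy was the exception there, at 0.97. The Exp3 control means rest on 3 channels, whose SD was 1.07 for Gip and 1.04 for Sst. For Gcg they include the 2 self-self channels that were not well above background. Tac1 went its own way among the controls: 9.79 in Exp1, 11.03 ± 0.09 in Exp2 and 7.21 ± 0.31 in Exp3 (SD, over 2, 5 and 3 channels; the SD of Exp1 was 0.03). Tac1 stood at 10.63 in Ascl2null RNA, below its level in the dsGFP control. The part that these starting levels play in the opposite directions of Exp1 and Exp2 was not tested.

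**Figure D4:**
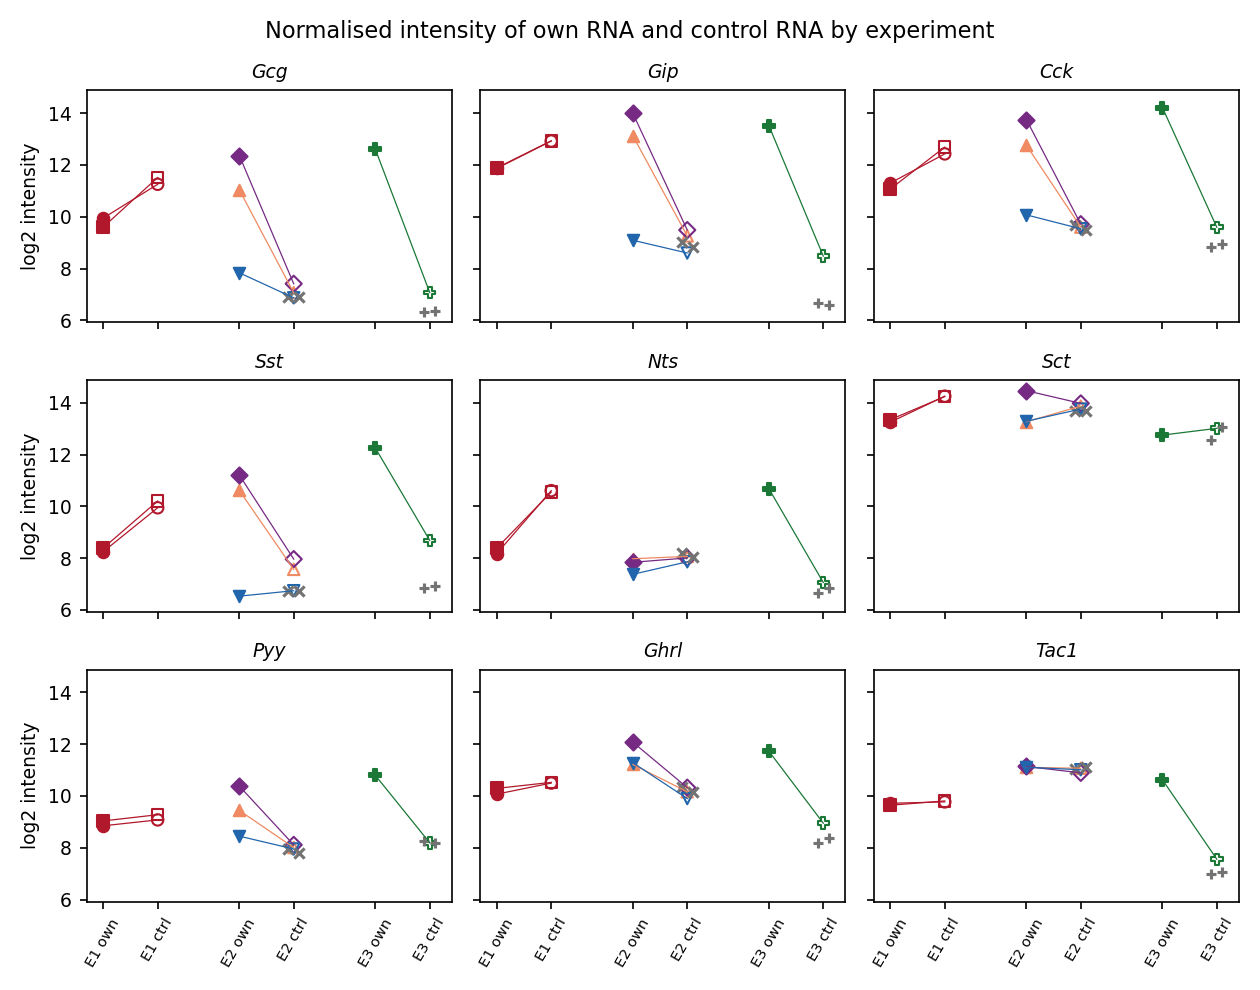
Normalised log2 intensity (y axis) of each hormone gene in own RNA (filled) and control RNA (open) of Exp1, Exp2 and Exp3 (E1 to E3), with lines joining the channels of 1 array and the self-self channels in grey; colours and shapes are those of the plot of ratios by array. Gcg in control RNA stands at 11.38 on average in Exp1, at 7.03 on average in Exp2 and at no more than 7.07 in Exp3.

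Control channels that should hold the same RNA also differed between arrays of 1 slide. On Exp3 Ascl2null the control channel was higher than the mean of the Exp3 self-self channels by 1.85 for Gip, 1.80 for Sst, 0.69 for Cck and 0.67 for Ghrl, but by -0.02 for Pyy. Gcg, not well above background on that self-self array, gives no such value. Gip and Sst passed 2-fold in this difference, where 1.01% of all genes did. On Exp2 TCF7L2null/Ascl2 OE, where 0.556% of all genes passed 2-fold, the control channel was higher than the Exp2 self-self mean by 1.23 for Sst, 0.57 for Gip and 0.52 for Gcg, and on Exp2 Ascl2 OE by 0.83, 0.34 and 0.17 for the same genes. Over the 442 other genes that were at least 2-fold higher on Exp3 Ascl2null, the median of this difference was 0.05. Set against the self-self mean in place of its own control channel, Ascl2null RNA was higher by 6.89 for Gip and 5.37 for Sst. What raised these control channels was not tested.

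The 9 genes did not move as 1 block. Over the 8 arrays, the ratios of Gcg, Gip, Cck and Sst correlated with each other at Pearson r of 0.99 to 1.00, Pyy with these 4 at 0.96 to 0.99, and Ghrl at 0.84 to 0.91. Nts with Tac1 had r = 0.87, and Sct with the other 8 had r of 0.20 to 0.64. The arrays share controls, and 2 of the 8 are self-self, so these values only describe the order of the ratios. Of 607 genes with a range of at least 2 on the log2 scale, those most like the mean of the hormone genes included Rbp4 (r = 0.99), Kyat3, Orai3, Abhd3, Nek5, Hspa1a and Moxd1 (r = 0.97). Rbp4, the retinol carrier of plasma, had ratios of -1.18 and -0.72 on the Exp1 Ascl2 OE arrays, 2.43 on Exp2 TCF7L2null/Ascl2 OE, 1.72 on Exp2 Ascl2 OE, 0.67 on Exp2 TCF7L2null and 4.00 on Exp3 Ascl2null. Orai3, a subunit of store-operated calcium channels, had -1.40 and -0.96, 2.13, 1.41, 0.25 and 2.82 on the same arrays.

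The genes that make, pack and sense these hormones behaved less uniformly. Counts per list are of measured genes at least 2-fold higher or lower on Exp3 Ascl2null, where 1.59% of all genes were 2-fold lower, with the list's median beside an all-gene median of 0.00. The 9 hormone genes had a median of 3.57. Of 16 granule and prohormone processing genes, 4 were higher and 1 lower (median 0.31). Chga, for the granule protein chromogranin A, had a ratio of 1.84, Scg5, a helper of the prohormone convertase PC2, 1.69 with its control not well above background (at least 2.41-fold), and Syt13, a synaptotagmin, -2.01. In Exp1, 1 of the 16 fell, Pcsk1, the convertase PC1/3, with a log2 change of -0.91 ± 0.12 (SE, n = 2 arrays; limma adjusted p = 0.0403). Pcsk1 was named for that call, after its values were seen. Of 14 other gut peptide genes, 1 was higher and none lower on Exp3 Ascl2null (median 0.29). Insl5, a peptide of the colon's L cells, had 2.25, while Guca2a and Guca2b, the guanylins that are not confined to enteroendocrine cells, had -0.87 and -0.46. Gast, for gastrin, had 0.49.

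Of 18 enteroendocrine transcription factors, 7 were at least 2-fold lower and 1 higher on Exp3 Ascl2null, with a median of -0.37. Pax4, an early factor downstream of Neurog3, had a ratio of -3.56, and Insm1, a zinc finger factor of endocrine progenitors, -2.42. Neurog3 itself had -2.39. Pdx1, a factor of duodenum and pancreas, had 2.31, with its control not well above background there (at least 4.97-fold). Pax4 was 0.31 and 0.51 on the Exp1 Ascl2 OE arrays, -1.63 on Exp2 TCF7L2null/Ascl2 OE, -1.48 on Exp2 Ascl2 OE and -0.22 on Exp2 TCF7L2null. Its signs were thus opposite to those of Gcg on these 5 arrays and on Exp3 Ascl2null, though -0.22 is near its -0.27 on the Exp3 self-self array. The list as a whole went both ways. With the dye term removed, 10 of 18 factors lay above 0 in Exp1, 8 on Exp2 TCF7L2null/Ascl2 OE and 6 on Exp2 Ascl2 OE. Isl1, named after its values were seen, shared the signs of Gcg. It had -0.35 and -0.43, 0.86, 0.71 and 0.56 on the same 5 arrays, and 0.52 on Exp3 Ascl2null, with its control not well above background.

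**Figure D5:**
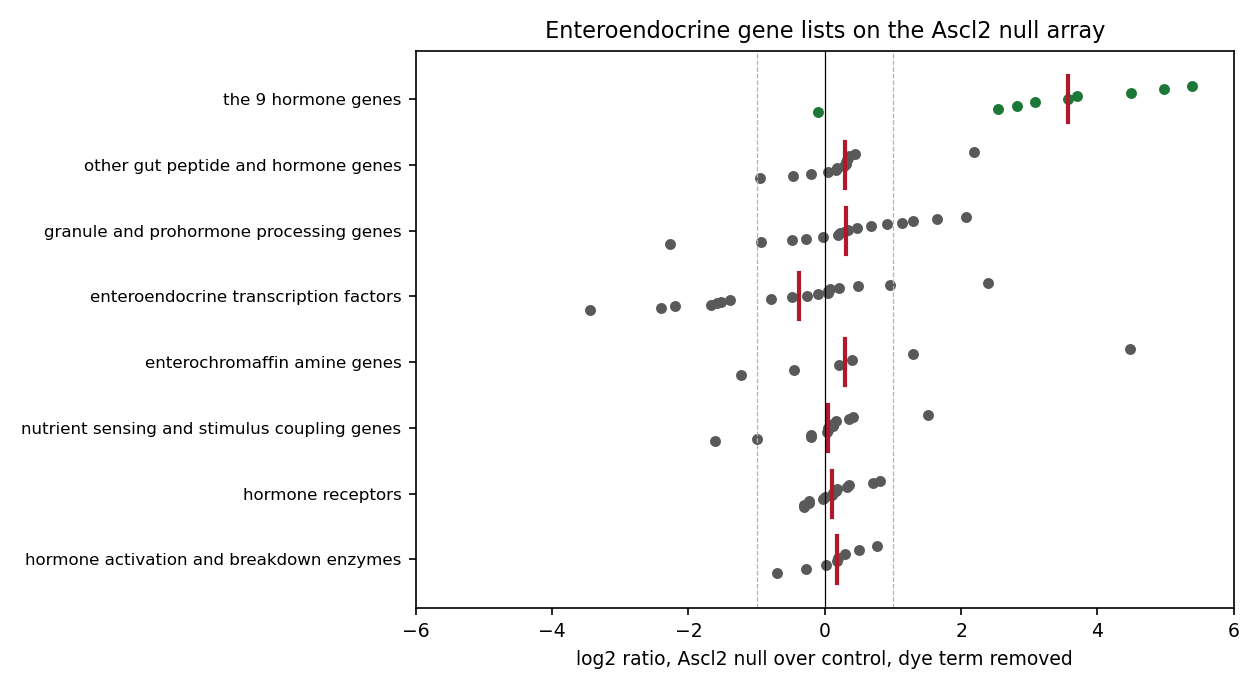
Log2 ratio on the Exp3 Ascl2null array with the dye term removed (x axis), 1 point per measured gene, by list (rows), with each list's median as a red bar and dashed lines at 2-fold. The hormone genes have a median of 3.57 and the transcription factors one of -0.37.

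Of 6 enterochromaffin amine genes, 2 were higher and 1 lower on Exp3 Ascl2null (median 0.30). Maob, an amine oxidase, had a ratio of 4.30, Hdc, which makes histamine, 1.41, and Slc18a1, a vesicular amine carrier, -1.26. Of 13 nutrient sensing genes, 1 was higher and 1 lower (median 0.04): Abcc8, a subunit of the ATP-sensitive potassium channel, had 1.41, and the fatty acid receptors Ffar2 and Ffar4 had -1.71 and -1.06. With the dye term removed, as in the counts, Ffar4 stayed just under 2-fold. None of 14 hormone receptors and none of 8 activation and breakdown enzymes passed 2-fold (medians 0.11 and 0.19). Among the receptors, Tacr2 had a ratio of 0.76, Gcgr 0.74 and Ghsr 0.30, while Cckbr was not well above background in either channel. Among the enzymes, Pcsk6 was at 0.87, Dpp4, which degrades the incretins, at -0.70, and Thop1 at 0.49. In Exp1, no gene of the amine, nutrient sensing, receptor, enzyme or other peptide lists passed the adjusted threshold. At an unadjusted p under 0.05 (limma), 4 of 6, 5 of 13, 0 of 14, 6 of 8 and 4 of 14 did so in either direction. Of all genes, 8.61% were lower and 6.75% higher by that rule. The nutrient sensing and enzyme genes among them went both ways, with log2 changes of -0.57 for Trpa1 and 0.39 for Ffar4, and -0.64 for Dpp4 and 0.53 for Thop1.

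Markers of enteroendocrine and other cells were measured beside the hormones. Of the enteroendocrine markers Chga, Chgb, Neurod1, Tph1, Pcsk1 and Scg2, 5 passed the filter, and Neurod1 was not well above background in own RNA on 7 of the 8 arrays. On Exp3 Ascl2null their summed intensity was 1.46 higher than in control on the log2 scale, and the same sum had ratios of 0.78 on Exp2 TCF7L2null/Ascl2 OE, 0.24 on Exp2 Ascl2 OE, -0.02 on Exp2 TCF7L2null, and -0.26 and -0.59 on the Exp1 Ascl2 OE arrays, beside 0.34 on the Exp2 self-self array. Such sums weight the brightest markers most, and the members went both ways: on Exp3 Ascl2null Chga, Chgb and Scg2 had ratios of 1.84, 1.58 and 0.97 (Scg2 with its control not well above background), while Tph1 had -0.59 and Pcsk1 -0.31. On Exp2 Ascl2 OE, 3 of the 5 lay below 0 with the dye term removed (median -0.15). The 8 enterocyte markers were well above background in own RNA wherever measured (Lct had no value on Exp2 TCF7L2null), and their sum had ratios of -0.59 and -0.95 on the Exp1 Ascl2 OE arrays, 0.38 on Exp2 TCF7L2null/Ascl2 OE, -0.38 on Exp2 Ascl2 OE, -0.70 on Exp2 TCF7L2null and 0.86 on Exp3 Ascl2null. Summed markers of crypt base columnar (CBC) stem cells had ratios of 0.94 and 0.44, -2.43, -1.20, 0.65 and -0.76 on the same arrays. The stem cell markers were thus opposite in sign to Gcg on all but Exp2 TCF7L2null. The enterocyte markers behind their sum went both ways. On Exp3 Ascl2null, 6 lay above 0 and 2 below with the dye term removed, and their ratios ran from -0.61 for Sis to 2.39 for Alpi. By the same count 5 lay above 0 and 3 below on Exp2 TCF7L2null/Ascl2 OE, and 3 above and 5 below on Exp2 Ascl2 OE. The part of the stem cell and enterocyte markers in the hormone ratios was not tested. In Exp1, 4 of 8 enterocyte markers fell and 2 of 8 stem cell markers rose at an adjusted p under 0.05 (limma). By that rule 0.569% of all genes fell and 0.352% rose. These calls depend on the processing: no gene passed with median centring or with outlying local backgrounds kept.

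Hormones of this set are also made by neurons and islets. Of 7 neuron markers, Ret and Prph were among those not well above background in own RNA on any array, and the list's summed ratio lay between -0.33 and 0.01. On Exp3 Ascl2null, 4 of the 7 were well above background and their summed ratio was -0.33, the lowest. Of 6 islet and exocrine pancreas markers, Ins1, Cpa1 and Pnlip were not well above background in own RNA on Exp2 TCF7L2null/Ascl2 OE, Exp2 Ascl2 OE or Exp3 Ascl2null, and the summed ratios there were 0.15, 0.00 and 0.24. Glia markers had summed ratios of -0.24 to 0.55 and mesenchyme markers of 0.01 to 0.31. Goblet markers ranged from -0.39 to 0.43, tuft markers from -0.31 to 1.16, Paneth markers from -0.84 to 0.65 and cell cycle markers from -1.12 to 0.51. The Paneth sum was 0.65 and -0.36 on the Exp1 Ascl2 OE arrays. With the dye term removed, 4 of 5 Paneth markers were at least 2-fold lower on Exp2 Ascl2 OE (median -1.73), where 0.98% of all genes were. On Exp2 TCF7L2null/Ascl2 OE it was also 4 of 5 (median -1.86), where 2.14% of all genes were, and on Exp3 Ascl2null 1 of 5, where 1.59% were. The tuft sum was -0.31 and -0.16 on the Exp1 Ascl2 OE arrays, 1.16 on Exp2 TCF7L2null/Ascl2 OE and 0.94 on Exp2 Ascl2 OE. It was -0.04 on Exp2 TCF7L2null and 0.44 on Exp3 Ascl2null, so it shared the sign of Gcg on all but Exp2 TCF7L2null. With the dye term removed, 5 of 7 tuft markers lay below 0 in Exp1 and 5 above 0 on Exp2 Ascl2 OE. Of 4 immune markers 3 passed the filter: on Exp2 Ascl2 OE, Lyz2 had a ratio of -1.81, Cd74 -0.08 and Ptprc 0.61, and on Exp3 Ascl2null Lyz2 had 0.68 and Cd74 0.31, with Ptprc not well above background. Lyz2 makes up nearly all of that list's sum and had no value on Exp2 TCF7L2null/Ascl2 OE. The Paneth marker Lyz1 had ratios of -1.86 on Exp2 Ascl2 OE and 0.90 on Exp3 Ascl2null, close to those of Lyz2. Which cells gave the Lyz2 signal was not tested. The part of these lists in the hormone ratios was not tested.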

How the data were processed

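The members and gene lists were chosen with earlier results of these data known. The deposited scanner files hold spot and local background intensities of 45018 spots per array, made with Agilent Feature Extraction 10.5.1.1 per the file headers, and a log10 ratio of Cy5 over Cy3. The authors' deposited table holds log2 ratios; its scale is that of the scanner ratios, on Exp1 with 8.70% and 8.49% of values differing by over 0.02, and its medians lie between -0.01 and 0.03. Scale and direction were found by comparison, and the sources used here do not say why Exp1 differs. Detection and outlier flags are other deposited columns.

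Median intensities were background-corrected with normexp (offset 50), loess-normalised and fitted with limma 3.58.1 in R 4.3.3 over all 8 arrays: a dye term and 5 condition effects, leaving 2 residual degrees of freedom, two-sided, Benjamini-Hochberg over 19324 genes at 0.05. Local backgrounds that the scanner flagged as outliers were replaced by the median of unflagged ones, a choice made after seeing the data: on Exp1 Ascl2 OE rep2 they reach 407956 in Cy3, against 44 among unflagged spots, and with them kept the fitted noise of that channel was 4052 intensity units, against 1.12 without. Spots flagged as outliers were left out. Between-array levels used Aquantile. A floor for a dim channel is the lowest probe well above background on that array. 26918 probes were named by RefSeq accession, 111 by another accession and 14145 as on the array. Named genes are the 9 members, the 3 largest changes per list on Exp3 Ascl2null with the dye term removed (Neurog3, Gast and Cckbr, which the ratios as measured would name, were added after their values were seen), the 8 genes most like the members' mean and both targeted genes. The fit was tested on simulated data. Probe positions within exons were not analysed here, and a few named genes are not reported here.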

Additional observations from a re-analysis of the deposited data

Results flagged for a closer look

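The effect labelled Ascl2 overexpression differed between Exp2 and Exp1 in a limma contrast for 6 hormone genes. The difference, Exp2 minus Exp1 on the log2 scale, was 5.45 for Gcg, 4.85 for Gip, 4.39 for Cck, 4.80 for Sst, 2.28 for Nts and 1.61 for Pyy. For Gcg, Gip, Cck and Sst the ratio was above 3 on the Exp2 array and below -1 on both Exp1 arrays. Nts was below -2 on both Exp1 arrays and near 0 on the Exp2 array. The labels differ in the control (dsGFP in Exp2, VillinCreERT2 in Exp1), and they give a time to RNA extraction, 24 h, for Exp1 but none for Exp2. Slide and experiment cannot be told apart.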

How the results depend on the processing

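Own and control RNA are already paired on each array through their ratio. No further pairing between conditions was possible because the groups compared share fewer than 2 replicate numbers. The slide as a random block was not run, since its correlation could not be estimated. The Exp1 calls (68 genes higher, 110 lower, 5 hormone genes lower) were the most sensitive: they became 0, 2 and 0 with the scanner log ratio, 0, 0 and 0 with median centring, 7, 16 and 2 with the authors' deposited values, and 6, 6 and 0 with 1 effect shared by 3 arrays. With the outlying local backgrounds kept (chosen after seeing the data) they were 0, 0 and 0, and without the dye term 188 and 365 genes were called. Without replicate 1 or 2 they ranged over 0, 1 to 3 and 0. For Exp2 minus Exp1, 96 genes were higher and 48 lower: 27 lower with the scanner log ratio, 0 higher, 0 lower and 0 hormone genes with median centring, 49 higher with the outlying backgrounds kept, 198 and 120 without the dye term, and 11 to 80 higher, 1 to 35 lower and 4 to 5 hormone genes without a replicate; hormone calls there fell to 4 (of 6) with the scanner log ratio or outlying backgrounds kept and to 5 with the deposited values or all probes averaged. On Exp2 TCF7L2null, 2 hormone genes were 2-fold higher in place of 1 with the scanner log ratio, the deposited values or the outlying backgrounds kept. Signs turned for Tac1 in Exp1 (0.0535 with median centring; -0.245 to 0.0242 without a replicate) and in Exp2 minus Exp1 (-0.0889 with median centring), and for Gip, Pyy and Ghrl (0.33, 0.23 and 0.0768) when 1 effect was shared by the Exp1 and Exp2 arrays. The cause was not tested. Under every alternative run, 8 hormone genes were 2-fold higher on Exp3 Ascl2null, 6 on Exp2 TCF7L2null/Ascl2 OE and 4 to 6 on Exp2 Ascl2 OE. With 1 array per condition outside Exp1, signal over background and the number of arrays limit what can be said.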
